A study of Mus musculus with 2 samples.

Results

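The 9 genes described here belong to the TGF-beta pathway of the mouse colon. They encode the 3 TGF-beta ligands (Tgfb1, Tgfb2 and Tgfb3), the inhibin beta A chain that forms activin A (Inhba), the type I and type II receptors (Tgfbr1 and Tgfbr2), the co-receptor betaglycan (Tgfbr3), the latent TGF-beta binding protein 1 (Ltbp1) and the matrix protein TGF-beta induced (Tgfbi). All 9 were present among the 17809 genes of the wild-type library and among the 15972 genes of the reporter library, and each was followed through the fibroblast types, the other stroma and the epithelium.

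TGF-beta is secreted in a latent form, held inactive by its own propeptide and tethered to the matrix by latent TGF-beta binding proteins until integrins, proteases or thrombospondin release it. The active ligand binds the type II receptor, which recruits and phosphorylates the type I receptor, and the signal passes through Smad2 and Smad3. Betaglycan presents ligand, above all TGF-beta 2, to the type II receptor. Activin A uses its own receptors but the same Smads. In the intestine the pathway is known for restraining epithelial growth and for matrix production by fibroblasts.

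Single-cell RNA was measured in 2 droplet libraries, each pooled from 3 female mice of 8 to 12 weeks. The wild-type library held epithelial and mesenchymal cells of the C57BL/6 colon, sorted by EpCAM and CD45 staining and mixed in equal parts (V3 kit). The reporter library held GFP-positive colonic mesenchyme of Pdgfra-H2B-eGFP mice, in which a nuclear GFP is made where Pdgfra is active, and cells were collected by GFP (V2 kit). Clusters with immune markers (114 cells) and epithelial markers (52 cells) were nevertheless present in it. No genotype or treatment was compared, and because cells cannot be assigned to mice, no difference has a replicate and no p-value is given.

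The wild-type library held 7495 cells (6120 to 16389 corrected counts each, median 8972) and the reporter library 4409 cells (2314 to 4432, median 3150), with 1 barcode found in both. Values are UMI counts that the authors corrected to a common depth separately in each library, so levels were not compared between libraries. A level is the average of the corrected counts over the cells in a class, called the mean here, and levels were not compared between genes. Classes were named from marker genes and carry the ending "-like". Crypt top fibroblasts (CTFs) met 10 of 10 of their markers in the wild-type library, crypt bottom fibroblasts 1 (CBFs1) 8 of 8 and crypt bottom fibroblasts 2 (CBFs2) 7 of 8. Pdgfra, the receptor gene that marks CTFs, had means of 8.77 in CTFs-like cells, against 1.82 for CBFs1-like and 3.50 for CBFs2-like cells. The epithelial gene Epcam was above 0 in 37.7% of wild-type fibroblasts (median 2649 genes per cell) and the fibroblast gene Col1a1 in 4.64% of epithelial cells (median 3221 genes). In the reporter library Epcam was above 0 in 0.542% of fibroblasts. Free RNA, doublets and the depth correction cannot be told apart as sources of these counts.

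The genes lie on 8 chromosomes of GRCm38 in GENCODE M21, all as protein-coding genes. Tgfb1 spans chr7:25687002-25705077 on the plus strand, Tgfb2 chr1:186622792-186705989 (minus), Tgfb3 chr12:86056745-86079041 (minus) and Inhba chr13:16011851-16031621 (plus). Tgfbr1 spans chr4:47353222-47414931 (plus), Tgfbr2 chr9:116084293-116175360 (minus) and Tgfbr3 chr5:107106570-107289629 (minus). Ltbp1 spans chr17:75005568-75392512 (plus), and Tgfbi lies on the same chromosome as Inhba at chr13:56609523-56639562 (plus). The 3 TGF-beta ligands are therefore spread over 3 chromosomes and share no cluster.

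Start-site windows of RefSeq (GRCm38.p6, 250 bases before and 50 bases after the start) were found for 7 of the 9 genes, all but Tgfb3 and Tgfbr3. Of these, 5 windows are printed below, because Tgfb1 and Tgfb2 were highest in different classes, Inhba and Tgfbi were both highest in CTFs-like cells, and Ltbp1 was lower there. Capitals mark matches on either strand to the GC box (GGGCGG), the TATA box (TATAAA), the cyclic AMP response element (TGACGTCA), the AP-1 site (TGANTCA), the E-box (CACGTG) and the 5-letter Smad element (CAGAC). Tgfb1 is the window chr7:25686752-25687051, Tgfb2 chr1:186705940-186706239 (minus strand), Inhba chr13:16011601-16011900, Tgfbi chr13:56609336-56609635, and Ltbp1 chr17:75005279-75005578, the upstream window of its pair.
Tgfb1: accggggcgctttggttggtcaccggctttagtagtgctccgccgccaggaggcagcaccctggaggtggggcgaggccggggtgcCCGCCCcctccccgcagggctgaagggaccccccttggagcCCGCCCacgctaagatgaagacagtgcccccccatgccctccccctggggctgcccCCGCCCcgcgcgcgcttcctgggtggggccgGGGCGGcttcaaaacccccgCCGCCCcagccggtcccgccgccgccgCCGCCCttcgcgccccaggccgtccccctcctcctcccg
Tgfb2: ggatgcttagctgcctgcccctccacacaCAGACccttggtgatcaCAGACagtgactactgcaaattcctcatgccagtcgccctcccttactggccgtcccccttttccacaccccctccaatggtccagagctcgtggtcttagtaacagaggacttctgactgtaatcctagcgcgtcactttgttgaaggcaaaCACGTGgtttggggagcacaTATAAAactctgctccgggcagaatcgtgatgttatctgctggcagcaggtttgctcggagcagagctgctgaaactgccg
Inhba: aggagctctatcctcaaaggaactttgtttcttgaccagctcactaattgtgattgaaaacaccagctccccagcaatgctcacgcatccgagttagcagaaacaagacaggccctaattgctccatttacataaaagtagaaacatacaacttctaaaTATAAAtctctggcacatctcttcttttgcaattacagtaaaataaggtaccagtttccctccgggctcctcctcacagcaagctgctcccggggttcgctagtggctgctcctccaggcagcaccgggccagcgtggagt
Tgfbi: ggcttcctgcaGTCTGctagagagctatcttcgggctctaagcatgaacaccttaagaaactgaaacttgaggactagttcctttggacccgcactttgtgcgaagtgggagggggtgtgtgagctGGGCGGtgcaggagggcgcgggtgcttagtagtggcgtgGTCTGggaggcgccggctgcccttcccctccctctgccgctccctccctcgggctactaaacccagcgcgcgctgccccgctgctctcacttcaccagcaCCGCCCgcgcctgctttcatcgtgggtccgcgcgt
Ltbp1: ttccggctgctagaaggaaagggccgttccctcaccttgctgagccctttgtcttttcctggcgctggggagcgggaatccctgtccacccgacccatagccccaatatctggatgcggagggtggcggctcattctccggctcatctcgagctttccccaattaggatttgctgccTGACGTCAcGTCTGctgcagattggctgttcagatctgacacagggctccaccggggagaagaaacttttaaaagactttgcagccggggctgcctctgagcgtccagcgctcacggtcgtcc

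The Tgfb1 window held 6 GC boxes and no TATA box, with 77.0% G and C, above 97.6% of all 32851 windows. The Tgfb2 window held no GC box but a TATA box that began 31 bases before the start and an E-box, with 54.3% G and C. A GC box was found in 35.7% of all windows, a TATA box in 13.6% and an E-box in 7.15%. Inhba and Tgfbi, which shared the class with their highest mean, shared none of the 6 motifs in these windows. Inhba held a TATA box that began 91 bases before the start, farther away than that of Tgfb2. Tgfbi held 2 GC boxes and 2 Smad elements, a short motif present in 49.6% of windows. The upstream Ltbp1 window held the only cyclic AMP response element among the windows of the 7 members that had one. This motif was present in 1.79% of all windows, and Tgfb3 and Tgfbr3 could not be searched. These are matches of letters and were not tested as binding sites.

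The 3 TGF-beta ligands were highest in 3 different cell types of the wild-type colon. Among the 11 named classes of at least 50 cells, Tgfb1 was highest in blood endothelial-like cells, Tgfb2 in enteric glia-like cells and Tgfb3 in CBFs2-like cells. Inhba was highest in CTFs-like cells. The heat map of class means shows them in different rows, with lymphatic endothelial-like and interstitial cell of Cajal-like cells, both under 50 cells, darkest for Tgfb1 and Tgfb3, and with low values for all 4 ligands in the epithelium.

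**Figure D1:**
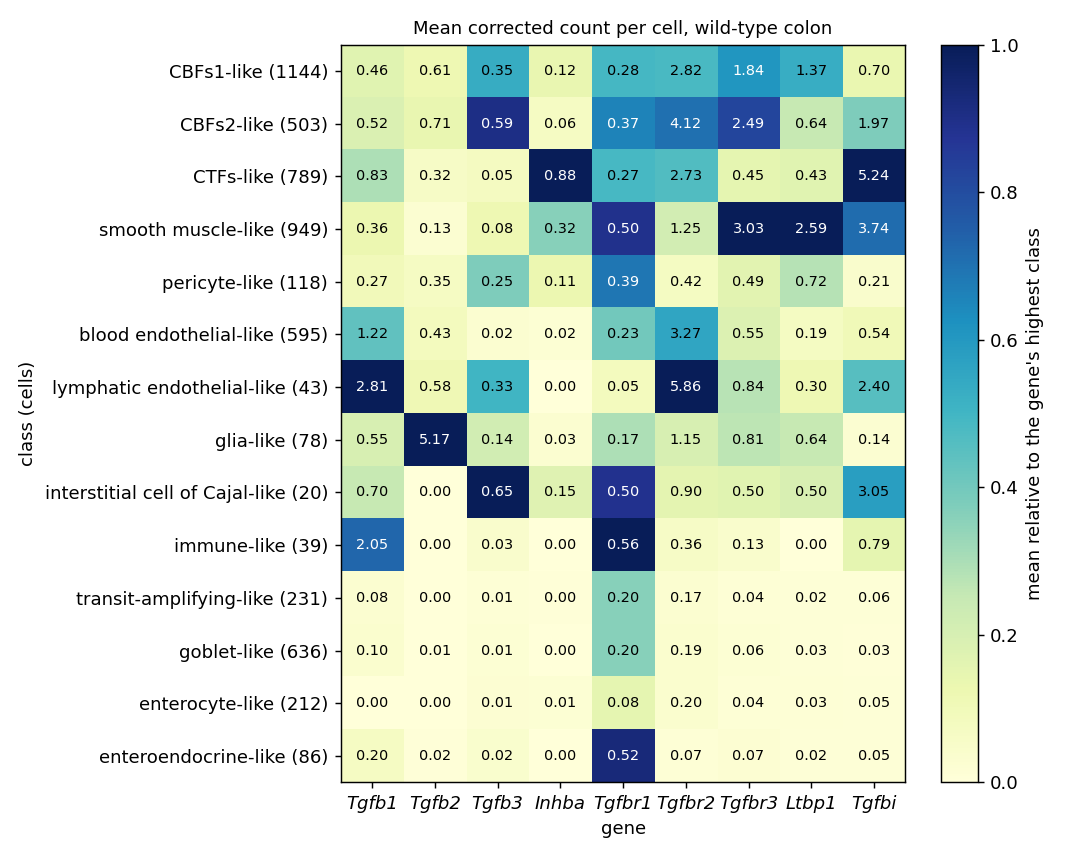
Mean corrected count per cell for each gene (columns) in the 14 named classes of the wild-type library (rows, cell numbers in brackets). Colour gives the mean relative to the highest class of the same gene, so colours compare classes and not genes. Tgfb2 has a single dark field in glia-like cells (5.17), Inhba in CTFs-like cells (0.88), and the columns of Tgfbr3 and Ltbp1 are darkest in smooth muscle-like cells (3.03 and 2.59).

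Tgfb1, the ligand best known for suppressing immune responses, had a mean of 1.22 in the 595 blood endothelial-like cells, of which 51.1% were above 0 (Clopper-Pearson 95% interval 47.0 to 55.2). CTFs-like cells had a mean of 0.825, followed by CBFs2-like cells with 0.517, CBFs1-like cells with 0.463 and smooth muscle-like cells with 0.355. Endothelial cells thus led the larger named classes, with CTFs-like cells next. An unnamed cluster of 100 cells led by Notch3, which met both pericyte and blood endothelial markers, was higher, with a mean of 1.75 and 74% above 0. Both types of CBFs-like cells were close together, their shares of cells above 0 overlapping (32.0% of CBFs1-like cells, interval 29.3 to 34.8, and 30.6% of CBFs2-like cells, 26.6 to 34.8). In classes of fewer than 50 cells Tgfb1 was higher still, at 2.81 in 43 lymphatic endothelial-like and 2.05 in 39 immune-like cells, a class whose size the CD45 staining of the sort can set. The reporter library gave the same order for immune cells, with 0.737 in 114 immune-like cells against 0.158 in all fibroblasts.

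Tgfb2 had its highest mean in the 78 glia-like cells. Their mean was 5.17, against 0.712 in CBFs2-like, 0.614 in CBFs1-like and 0.581 in lymphatic endothelial-like cells, the next named classes in order. Being few, glia-like cells held 403 of the 2324 corrected counts of Tgfb2 in the library, and CBFs-like cells held 1060. Tgfb2 was above 0 in 89.7% of glia-like cells (80.8 to 95.5), and in 53.8% after each cell was thinned to 2000 corrected counts, where CBFs2-like cells kept 13.3%. The single highest cell, with 24 corrected counts, was a glia-like cell. The glia-like class met 7 of 7 glial markers and was led by Kcna1, Gpr37l1 and Kcna2, but it also carried fibroblast RNA, with a Col1a1 mean of 7.03 against 19.9 in fibroblasts. The highest mean of Tgfb2 in a fibroblast class, 0.712, lay well below the glial value.

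Among endothelial cells Tgfb2 differed between the 2 blood vessel clusters. In the 497 cells of the cluster led by Esm1 and Kdr the mean was 0.503. In the 98 cells of the cluster led by Selp and Madcam1, genes of venous endothelium, it was 0.0510, a 9.86-fold difference. The lower mean rests on few corrected counts, so the size of this fold is uncertain. Tgfbi was reversed, at 0.129 in the Esm1 cluster and 2.62 in the Selp cluster (20.4-fold). Tgfb3 and Inhba had too few counts there to be tested. Of the other 7 genes, 3 were 2-fold or more higher in the Selp cluster (Tgfbi, Tgfbr3 and Ltbp1), as were 15.6% of all genes tested, and Tgfb2 was lower, as were 6.93%. Tgfb1 (0.918 and 1.28) and Tgfbr2 (3.20 and 3.28) lay within 2-fold.

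Among fibroblasts Tgfb3 was highest in CBFs. Its mean was 0.588 in CBFs2-like and 0.347 in CBFs1-like cells but 0.0507 in CTFs-like cells and 0.0769 in smooth muscle-like cells. Shares of cells above 0 were 42.5% (38.2 to 47.0) in CBFs2-like, 28.3% (25.7 to 31.0) in CBFs1-like and 4.82% (3.43 to 6.55) in CTFs-like cells. After thinning they were 11.3%, 7.78% and 1.14%, so the 2 CBFs types lay closer together. Outside the fibroblasts the 43 lymphatic endothelial-like cells had a mean of 0.326 with 20.9% above 0 (10.0 to 36.0), near that of CBFs1-like cells. Pericyte-like cells had 0.246, and blood endothelial-like cells were near the bottom at 0.0202. The 20 cells that resembled interstitial cells of Cajal had a mean of 0.650 from 13 corrected counts, too few to place them above CBFs2-like cells.

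Inhba separated CTFs-like cells from every other class. Its mean was 0.877 in CTFs-like cells and 0.317 in smooth muscle-like cells, while CBFs1-like and CBFs2-like cells had 0.123 and 0.0616. Of CTFs-like cells 41.1% were above 0 (37.6 to 44.6), against 21.6% of smooth muscle-like cells (19.0 to 24.4). Enteroendocrine-like, lymphatic endothelial-like and immune-like cells had no corrected count. In the 86 enteroendocrine-like cells this allows a share of cells with a count of up to 3.49% (Clopper-Pearson upper limit 4.2%), which limits detection and not expression.

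The 2 signalling receptors differed in pattern. Tgfbr2, which binds the ligand, followed the stroma, with means of 4.12 in CBFs2-like, 3.27 in blood endothelial-like, 2.82 in CBFs1-like, 2.73 in CTFs-like, 1.25 in smooth muscle-like and 1.15 in glia-like cells. CBFs1-like and CTFs-like cells were neighbours that did not separate, with 85.6% (83.4 to 87.6) and 83.1% (80.3 to 85.7) of cells above 0. Lymphatic endothelial-like cells had the highest mean, 5.86, and all 43 were above 0. Pericyte-like cells were the stromal exception among the larger classes at 0.424.

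Tgfbr1, the kinase that Tgfbr2 activates, was counted in both stroma and epithelium. Class means ran from 0.0849 in enterocyte-like to 0.523 in enteroendocrine-like cells over the classes of at least 50 cells. Smooth muscle-like cells had 0.502, pericyte-like cells 0.390, CBFs2-like cells 0.372 and CTFs-like and CBFs1-like cells 0.274 and 0.277. The order at the top was not firm: after thinning, 5.81% of enteroendocrine-like and 10.7% of smooth muscle-like cells were above 0, and 4 of the 8 alternatives placed smooth muscle-like cells first. Both receptors were above 0 together in 22.1% of CBFs-like and 17.6% of CTFs-like cells, close to the product of the separate shares (21.9% and 17.3%).

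The co-receptor gene Tgfbr3 had means of 3.03 in smooth muscle-like, 2.49 in CBFs2-like and 1.84 in CBFs1-like cells but 0.452 in CTFs-like cells. Only 27.9% of CTFs-like cells were above 0 (24.8 to 31.2), against 81.7% (78.0 to 85.0) of CBFs2-like cells. CTFs-like cells thus sat with blood endothelial-like (0.550) and pericyte-like cells (0.492), below the other fibroblasts.

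Ltbp1, which anchors latent TGF-beta in the matrix, was highest in smooth muscle-like cells at 2.59, followed by CBFs1-like cells at 1.37. Pericyte-like (0.720), CBFs2-like (0.644), glia-like (0.641) and CTFs-like cells (0.431) lay lower. Within CBFs it was 2.12-fold lower in CBFs2-like than in CBFs1-like cells.

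Tgfbi, named for its induction by TGF-beta and encoding an integrin-binding matrix protein, was highest in CTFs-like cells (5.24), ahead of smooth muscle-like cells (3.74). CBFs2-like cells had 1.97, CBFs1-like cells 0.697 and pericyte-like cells 0.212. The share above 0 was 87.7% (85.4 to 89.7) in smooth muscle-like and 80.6% (77.7 to 83.3) in CTFs-like cells, so the higher mean of CTFs-like cells came with a lower share of cells. Between the CBFs types, 1 of the 9 genes was 2-fold or more higher in CBFs2-like cells (Tgfbi, 2.83-fold), where 8.38% of genes tested were, and 1 was lower (Ltbp1), where 6.01% were.

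The comparison of CTFs-like with CBFs-like cells addressed how fibroblasts at the top and bottom of the crypt differ in these signals. In the wild-type library 2 of the 9 genes, Inhba and Tgfbi, were 2-fold or more higher in 789 CTFs-like than in 1647 CBFs-like cells, where 6.4% of 13019 genes tested were. Another 4 were 2-fold or more lower, Tgfb2, Tgfb3, Tgfbr3 and Ltbp1, where 11.5% of genes were. The median log2 ratio was -0.23 over the members and -0.08 over all genes tested. Both signalling receptors and Tgfb1 lay within 2-fold.

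Inhba had a mean of 0.877 in CTFs-like cells against 0.104 in CBFs-like cells, a log2 ratio of 3.07. Tgfbi had 5.24 and 1.09, a log2 ratio of 2.27. CTFs-like cells also carried the smooth muscle genes Acta2 and Tagln, with means of 11.0 and 8.36 against 0.754 and 0.427 in CBFs-like cells. The 8 smooth muscle markers summed to a mean of 20.1 in CTFs-like, 1.65 in CBFs-like and 238 in smooth muscle-like cells. Myh11 (0.321 against 0.0492) and Synpo2 (0.336 against 0.0735) were also higher in CTFs-like than in CBFs-like cells. Actg2 (0.0393 against 0.0401) and Cnn1 (0.0177 against 0.0134) lay within 2-fold. Des (0.00634 against 0.239) and Lmod1 (0.00887 against 0.0504) were lower. The 11 epithelial markers summed to 6.23 in CTFs-like cells, against 4.36 for CBFs-like and 195 for epithelial cells, and the part of either list in these ratios was not tested. Ltbp1 and Tgfbr3 were lower in CTFs-like than in CBFs-like cells, with 0.431 against 1.15 for Ltbp1 and 0.452 against 2.04 for Tgfbr3.

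On the ligand side Tgfb3 had a mean of 0.0507 in CTFs-like cells against 0.421 in CBFs-like cells, 8.30-fold apart, while Tgfb2 had 0.318 and 0.644, 2.02-fold apart. Tgfb2 thus lay at the limit, and its log2 ratio of -1.02 ranged from -1.10 to -0.67 over the alternatives. Tgfb1 was 1.72-fold higher in CTFs-like cells (0.825 against 0.480).

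The reporter library, a separate pool of mice measured with another kit, gave the same calls for 5 genes. There 517 CTFs-like and 3726 CBFs-like cells were compared, and Inhba and Tgfbi were again 2-fold or more higher in CTFs-like cells, where 6.73% of genes tested were. Tgfb3, Tgfbr3 and Ltbp1 were again lower, where 13.3% were. The means were 0.106 and 0.0271 for Inhba, from 55 and 101 corrected counts, and 0.762 and 0.206 for Tgfbi. Tgfb3 had 0.0232 and 0.119, Tgfbr3 0.0890 and 0.418, and Ltbp1 0.0503 and 0.385. Tgfb2 was nearly even at 0.207 and 0.239, and Tgfb1 was 1.45-fold higher in CTFs-like cells.

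**Figure D2:**
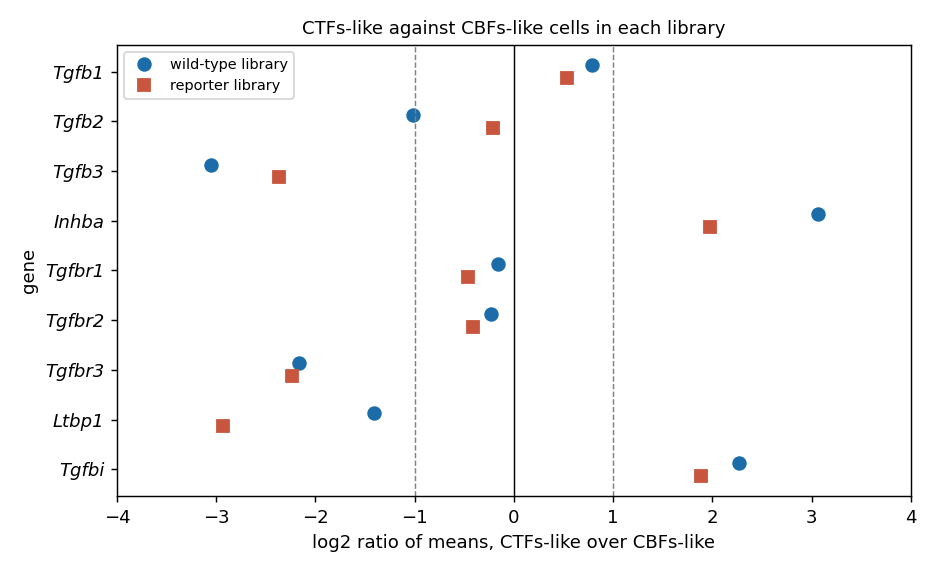
Log2 ratio of the mean corrected count in CTFs-like over CBFs-like cells for each gene, in the wild-type library (circles) and the reporter library (squares). Dashed lines mark 2-fold, and no error is drawn because each library is a single pool. Inhba and Tgfbi lie right of the upper line and Tgfb3, Tgfbr3 and Ltbp1 left of the lower line in both libraries, while Tgfb2 passes it in the wild-type library only (-1.02 and -0.21).

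The sizes differed between the libraries. Ltbp1 was 2.66-fold lower in CTFs-like cells of the wild-type and 7.65-fold lower in those of the reporter library, and Inhba was 8.40-fold and 3.92-fold higher. Whether these sizes differ beyond the variation between pools could not be tested with 1 library each. The smooth muscle markers again summed higher in CTFs-like (11.6) than in CBFs-like cells (0.576) of the reporter library.

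The CTFs-like cells of the wild-type library were not uniform in these genes. At the higher clustering resolution most of them lay in 2 clusters, 562 cells led by Fam180a, Cybrd1 and Sox6 and 223 cells led by Lpar3, Dmp1 and Trpa1. The members were left out of the clustering features, so their levels did not form this split. Tgfb1 had means of 0.397 in the Fam180a cluster and 1.88 in the Lpar3 cluster, 4.75-fold apart, and the shares above 0 were 26.7% (23.1 to 30.6) and 79.4% (73.5 to 84.5). Of the 9 genes, 4 were 2-fold or more higher in the Lpar3 cluster (Tgfb1, Inhba, Ltbp1 and Tgfbi), where 11.6% of genes tested were, and 2 were lower (Tgfb2 and Tgfbr3), where 4.97% were.

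Tgfbi reached 10.1 in the Lpar3 cluster, where all 223 cells were above 0, and 3.33 in the Fam180a cluster. Inhba had 1.61 and 0.589, and Ltbp1 0.843 and 0.258. Tgfb2 was reversed, with 0.0987 in the Lpar3 and 0.407 in the Fam180a cluster. Of the 5 fibroblast clusters compared, the Lpar3 cluster had the most Tgfb1, Inhba and Tgfbi and the least Tgfb2, as the bars by cluster show.

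**Figure D3:**
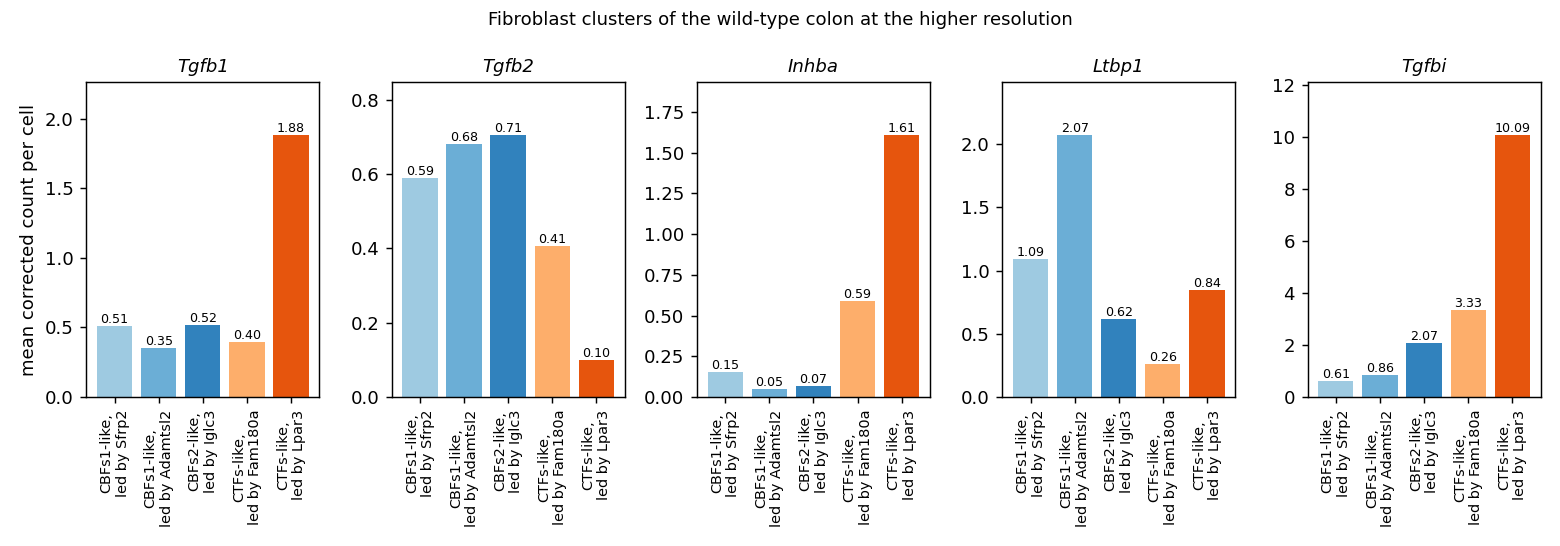
Mean corrected count per cell of 5 genes in the fibroblast clusters of the wild-type library at the higher resolution (809, 330, 472, 562 and 223 cells from left to right). Each panel has its own axis from 0. Tgfb1, Inhba and Tgfbi are highest in the CTFs-like cluster led by Lpar3 (1.88, 1.61 and 10.1), while Ltbp1 is highest in the CBFs1-like cluster led by Adamtsl2 (2.07).

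Other genes separated these clusters as well. Pdgfra had means of 11.6 in the Lpar3 and 7.66 in the Fam180a cluster, Wnt5a, a non-canonical Wnt ligand of CTFs, 5.07 and 1.90, and Nrg1, an EGF family ligand, 3.76 and 0.238. The Lpar3 cells had a median of 2915 genes and the Fam180a cells 2273, and after thinning Tgfb1 was still above 0 in 35.4% and 7.83% of cells. Acta2 was lower in the Lpar3 cluster (2.82 against 14.4), and the smooth muscle markers summed to 3.87 and 26.7. The part of these genes in the member differences between the clusters was not tested.

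Without the Lpar3 cells the difference in Tgfb1 between CTFs-like and CBFs-like cells was gone (log2 ratio -0.23 in place of 0.78). Inhba and Tgfbi stayed 2-fold or more higher and Tgfb3, Tgfbr3 and Ltbp1 2-fold or more lower in the Fam180a cluster than in CBFs-like cells, where 4.99% of genes tested were higher and 14.3% lower. Tgfb2 lay within 2-fold in that comparison (0.407 against 0.644).

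CBFs1-like cells also separated, mostly into 809 cells led by Sfrp2 and 330 led by Adamtsl2 and Kcnk2. Ltbp1 had means of 1.09 and 2.07 in these, 1.91-fold apart, and Inhba 0.153 and 0.0515. Inhba was the only member past 2-fold, lower in the Adamtsl2 cluster as were 5.81% of genes tested, and no member was 2-fold higher there, where 2.45% were.

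In the reporter library a further cluster with Nrg1 appeared at the higher resolution. It held 302 cells led by Nrg1, Agt and Fam105a, carried no type name, had a Pdgfra mean of 0.758, and 78.8% of its cells lay in the CBFs1-like cluster led by Saa3 in the reported classes. Its Tgfbi mean was 1.19 against 0.766 in the CTFs-like cells, its Tgfb1 mean 0.338 against 0.217 and its Ltbp1 mean 0.407 against 0.0504. Of the 9 genes, Ltbp1 and Tgfb3 were 2-fold or more higher than in CTFs-like cells, where 12.2% of genes tested were, and none was 2-fold lower, where 3.25% were. Inhba was 0.0927 in these cells and 0.107 in the CTFs-like cells. Leaving the Saa3 cluster out of CBFs-like cells raised the Tgfbi ratio of the reporter library from a log2 value of 1.89 to 2.50.

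The 3 CBFs1-like clusters of the reporter library differed from each other in Tgfb1, Tgfbr1 and Tgfbi. Tgfbr1 had means of 0.266 in the cluster led by Sbno2, 0.230 in that led by Saa3 and 0.0913 in that led by Cxcl13. Tgfb1 had 0.158, 0.257 and 0.106, and Tgfbi 0.0972, 0.475 and 0.0913 in the same order. Tgfbr2 was even across them (0.665, 0.529 and 0.695). Between CBFs2-like and CBFs1-like cells of this library, Inhba alone was 2-fold or more lower in CBFs2-like cells (0.00941 against 0.0323, from 8 and 93 corrected counts), where 14.5% of genes tested were lower, and none of the 9 was 2-fold higher, where 4.81% were.

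Against the epithelium, which TGF-beta restrains, 8 members were higher in fibroblasts of the wild-type library. In the wild-type library 8 of the 9 genes were 2-fold or more higher in 2436 fibroblasts than in 2480 epithelial cells, where 19.3% of genes tested were, and none was lower, where 38.7% were. The median log2 ratio was 5.38 over the members and -0.55 over all genes tested. The largest ratios were those of Tgfbi (2.43 against 0.0488) and Tgfb2 (0.538 against 0.0109). Tgfbr1 was the exception, 1.81-fold higher in fibroblasts (0.296 against 0.164). In the reporter library Tgfb1 (0.308 against 0.158) and Inhba (0.0769 against 0.0368) were higher in the 52 epithelial cells than in all fibroblasts. Inhba had 4 corrected counts in these cells, and the other members were lower there than in fibroblasts. The same cells also carried immune RNA, with 9 immune markers summing to a mean of 9.38.

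**Figure D4:**
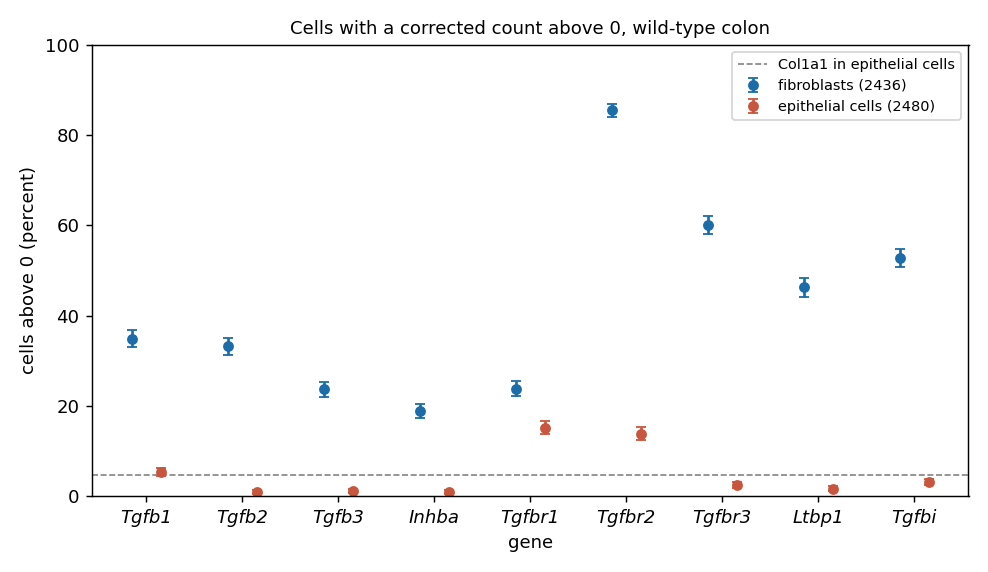
Share of cells with a corrected count above 0 for each gene in fibroblasts and epithelial cells of the wild-type library, with Clopper-Pearson 95% intervals that cover counting error only. The dashed line is the share of epithelial cells with Col1a1, a fibroblast gene (4.64%). Tgfbr1 (15.2%) and Tgfbr2 (13.9%) lie above that line in epithelial cells, and Tgfb2, Tgfb3, Inhba, Tgfbr3, Ltbp1 and Tgfbi lie below it. Tgfb1 (5.32%) lies just above it, with an interval that spans the line.

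Shares in epithelial cells are given beside that of Col1a1, a gene with far higher counts in fibroblasts. Tgfb2 (0.927%), Tgfb3 (1.17%), Inhba (0.847%), Ltbp1 (1.61%), Tgfbr3 (2.50%) and Tgfbi (3.1%) were above 0 in fewer epithelial cells than Col1a1 (4.64%). Tgfb1 was near that share, above 0 in 5.32% (4.47 to 6.28). Tgfbr2 was above 0 in 13.9% of epithelial cells (12.5 to 15.3) and Tgfbr1 in 15.2% (13.8 to 16.6). After thinning both fell to 3.02% and 3.06%. As a share of the same gene's fibroblast mean, the epithelial mean was 55.4% for Tgfbr1, 10.4% for Tgfb1, 5.54% for Tgfbr2 and 4.02% for Tgfb3. It was 2.41% for Tgfbr3, 2.39% for Inhba, 2.38% for Ltbp1, 2.02% for Tgfb2 and 2.00% for Tgfbi. The fibroblast genes Col1a1, Col3a1, Col6a1, Lum and Pdgfra stood at 0.930%, 1.05%, 0.996%, 0.912% and 1.55%, below all 9 members. Which of the low epithelial counts came from epithelial cells was not tested.

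Within the epithelium the receptors were spread over the lineages. Tgfbr2 had means of 0.198 for enterocyte-like, 0.193 for goblet-like, 0.173 for transit-amplifying-like and 0.0698 for enteroendocrine-like cells. The 935 epithelial cells that met both stem and enterocyte markers had 0.185, and at the higher resolution most of them lay in 2 clusters, 474 stem-like cells with 19.6% above 0 (16.1 to 23.5) and 466 enterocyte-like cells with 10.3% (7.69 to 13.4). Thinned, the 2 shares were 3.80% and 2.79%. Tgfbr1 had means of 0.204 for goblet-like, 0.203 for transit-amplifying-like and 0.0849 for enterocyte-like cells.

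Tgfb1 differed between epithelial classes in detection. Goblet-like cells had a mean of 0.0975 with 8.65% above 0 (6.58 to 11.1), where Col1a1 stood at 4.87%. No corrected count was found in the 212 enterocyte-like cells led by Atp12a and Saa1, where Col1a1 stood at 4.25%. Their share with a count may be as high as 1.42% (Clopper-Pearson upper limit 1.72%), a limit on detection and not on expression. In the 935 cells that met both stem and enterocyte markers 3.32% were above 0 (2.26 to 4.67), where Col1a1 stood at 4.06%. Transit-amplifying-like cells had 7.36% and the 380 epithelial cells led by Krt36 4.47%, where Col1a1 stood at 3.90% and 4.47%. Enteroendocrine-like cells had 14.0% (7.42 to 23.1), where Col1a1 stood at 12.8%. Their means were 0.198 for Tgfb1 and 0.140 for Col1a1, against 0.592 and 19.9 in fibroblasts.

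Other genes of the pathway were read from 5 lists of 94 genes in all. Between CTFs-like and CBFs-like cells of the wild-type library, 2 of 16 tested latency and activation genes were 2-fold or more higher and 3 lower, where 6.4% and 11.5% of all genes tested were. Plau, the urokinase that activates plasmin, had a mean of 1.02 in CTFs-like cells against 0.0322 in CBFs-like cells, and Ltbp2, a microfibril protein gene, 0.0215 against 0.00486. Ltbp4, another latent TGF-beta binding protein (4.56 and 16.3), and fibrillin 1 (Fbn1, 1.43 and 4.69) were lower in CTFs-like cells, while Ltbp3 (0.774 and 1.01) lay within 2-fold. Ltbp4 (0.683 and 2.69) and Fbn1 (0.333 and 0.953) were also lower in CTFs-like cells of the reporter library, where none of 15 latency genes was 2-fold higher and 3 were lower (6.73% and 13.3% of all genes tested). Plau lay within 2-fold there (0.0271 against 0.0177), and Ltbp2 had too few counts to be tested.

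Of 17 tested ligands and ligand binders, 4 were higher and 5 lower in wild-type CTFs-like cells (6.4% and 11.5% of all genes tested), and of 16 in the reporter library 2 were higher and 4 lower (6.73% and 13.3%). Inhbb, the other activin beta chain, had means of 0.0317 and 0.00668 in the wild-type and 0.0464 and 0.00188 in the reporter library, higher in CTFs-like cells in both but low throughout. Decorin (Dcn), a proteoglycan that binds TGF-beta, had 21.7 against 117 in the wild-type and 4.73 against 22.1 in the reporter library. Follistatin (Fst), which neutralises activin, had 0.134 against 0.0449 in the wild-type library and no corrected count in CTFs-like cells of the reporter library, against 0.0228 in CBFs-like cells.

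None of 7 tested other receptors was 2-fold higher in CTFs-like cells of either library. In the wild-type library 1 was lower, the activin type II receptor Acvr2a (0.0938 against 0.199). Among reporter cells 3 were lower, Acvr2a (0.0193 against 0.0590), Acvr1b (0.00580 against 0.0276) and the co-receptor Cd109 (0.00387 against 0.0419), of which Acvr1b and Cd109 lay within 2-fold in the wild-type library. Of 18 Smads and regulators, Tgif2 was higher (0.106 against 0.0261) and Smad3 was lower (0.162 against 0.330) in the wild-type library, and Tgif2 alone passed 2-fold in the reporter library (0.0812 against 0.0252). Of 26 response genes 2 were higher in wild-type CTFs-like cells, Tnc (5.71 against 2.19) and Tsc22d1 (6.38 against 2.41), and 6 were lower, led by elastin (Eln, 0.240 against 7.04) and Zeb2 (0.711 against 4.13). Among reporter cells 3 of the 26 were higher and 7 lower, with Eln at 0.137 against 1.66 and Zeb2 at 0.147 against 1.04. These counts stand beside the same shares of all genes, 6.4% and 11.5% in the wild-type and 6.73% and 13.3% in the reporter library.

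Against the epithelium, 21 of 26 response genes and 13 of 18 latency genes were 2-fold or more higher in fibroblasts, where 19.3% of all genes tested were, and 2 of each list were lower, where 38.7% were. Of 17 ligands and ligand binders 15 were higher and 1 lower, and of 8 other receptors 4 were higher and 2 lower. Smads and their regulators were nearer the share of all genes, with 4 of 18 higher and 2 lower. Higher genes included Sparc (31.3 against 0.325) and Mmp2 (5.23 against 0.0577). The epithelial side held Itgb6, the integrin chain that releases TGF-beta from its latent complex at epithelial surfaces (0.280 in epithelial cells and 0.00287 in fibroblasts), and Acvr1c, a type I receptor of the activin branch (0.250 and 0.00287). Acvr1b, the activin type I receptor, was also higher in epithelial cells (0.267 against 0.0493). Among the cell cycle inhibitors that TGF-beta induces, Cdkn2b had means of 0.440 in epithelial cells and 0.0267 in fibroblasts, and Cdkn1a 3.41 and 1.11.

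Genes with the most similar class pattern were sought by Pearson correlation of log2(mean + 0.01) over the 14 named classes of the wild-type library, which share 1 library, among 13609 genes. Inhba was most like Rerg (r = 0.97), Bmp5 (0.95), a BMP ligand of CTFs, and Cxcl14 (0.94). Tgfbr3 was most like Fstl1 (0.96), Ltbp1 most like Sgce (0.965) and Synm (0.956), and Tgfbi most like Mr1 (0.95) and the thrombin receptor gene F2r (0.90). Tgfb2 came closest to Gprc5b (0.93) and Plat (0.91), Tgfb1 to Gramd1a (0.94) and Serpinb9 (0.93), and Tgfb3 to Ndn (0.91). Tgfbr2 was most like the laminin gene Lama4 (0.93), and Tgfbr1 most like Braf (0.92). With 14 classes of very unequal size these values describe likeness only.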

How the data were processed

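The authors used Cell Ranger to align reads to mm10 and Seurat 3.1 (R 3.6.2) to filter and to apply SCTransform. Of the cells here, 7394 wild-type and 4407 reporter cells lay within the limits the study states. Mitochondrial genes held over 10% of the corrected counts in 3043 wild-type cells and over 5% in 146 reporter cells. These stricter limits were used for an alternative only. The deposited score values are the resulting corrected UMI counts, whole numbers at a common depth, and the deposited natural log values are ln of 1 plus those counts. That the whole numbers are corrected was read from the values, so the depth sequenced is not known. Members and lists were chosen with earlier results of these data known.

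Clustering of the natural log values used Seurat 5.3.0 with R 4.3.3 (3000 variable features without members and pathway genes, 30 components, resolutions 0.45 and 0.3; higher 0.8 and 0.6). A cluster took a name from 22 marker lists when at least 3 and at least 50% of the detected markers were 2-fold higher than in other cells and above 0 in 10% of its cells, with a mean log2 fold of 1.5 and a lead of 1 over the next list (pseudocount 0.01). In the reporter library, clusters without a name became CBFs1-like when over 50% of CBFs1 markers were 2-fold above CTFs-like and CBFs2-like clusters. This scoring was settled after the clusters were seen, to name the fibroblast clusters. Unnamed clusters of 485 (Hbb-bt), 152 (Pi16) and 100 cells (Notch3) entered no class.

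Ratios compare class means, and a gene was tested for 2-fold with at least 20 corrected counts. Named are the members, pathway genes past 2-fold with the largest ratios, leading genes and the genes of most similar pattern. The finer clusters compared, some marker genes and the examples among 2-fold pathway genes were chosen after values were seen. Intervals are Clopper-Pearson 95%, and the limit for 0 is 3 cells. Intervals cover counting error only, and shares also read corrected values. The ratio was tested on simulated data, with changed genes drawn above a mean of 0.2 after lower genes were recovered too poorly, so ratios of low genes, which include Inhba and Tgfb3 in the reporter library, are less certain. Scrublet called 7 wild-type cells (0.0934%) and 5 reporter cells (0.113%), too few to have worked, and doublets were kept. Python 3.11.15, numpy 2.4.6, scipy 1.17.1, scanpy 1.11.5 and matplotlib 3.10.9 were used. Alternatives changed resolution, components, features, doublets, mitochondrial cells, thinning, measure, pseudocount, filter and classes.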

Additional observations from a re-analysis of the deposited data

Results flagged for a closer look

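The log2 ratio of CBFs2-like over CBFs1-like cells had opposite signs in the libraries for 2 genes, and the difference was not tested. For Tgfb1 the wild-type library gave 0.16 and the reporter library -0.84, and for Tgfbr1 they gave 0.42 and -0.22. All 4 values lay within 2-fold. In the reporter library the CBFs1-like mean of Tgfb1 was 0.167 over all 3 clusters and 0.106 in the cluster led by Cxcl13, beside 0.0929 in CBFs2-like cells.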

How the results depend on the processing

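No paired analysis was possible because each condition is 1 library and the results come from no test. Over 315 member ratios recomputed under the alternatives, none of those past 2-fold as reported changed sign, and 14 moved by more than 1.5-fold. Part of the 315 could not move or could hardly move. The stricter count filter leaves a ratio as it is, and the doublet call removed only 7 wild-type and 5 reporter cells. The counts of members past 2-fold stayed within 1.5-fold of those reported under every alternative run. In the wild-type library 2 genes were higher in CTFs-like cells in all of them, and 3 or 4 were lower, depending on Tgfb2, which lay at the limit. In the reporter library the counts were 2 and 3 throughout. Tgfbr1 passed 2-fold over epithelial cells at resolution 0.8 and with class totals as denominator, giving 9 genes. The class with the highest mean changed for Tgfbr1 in 4 of 8 alternatives and, with 15 components, for Tgfb1, which was then highest in lymphatic endothelial-like cells. The Tgfbi ratio of the reporter library ranged from 1.84 to 2.85 (log2). Without cells above the mitochondrial limit, the wild-type log2 ratio of Ltbp1 was -1.10 in place of -1.41, nearer the 2-fold limit. That of Tgfb1 was 0.99 in place of 0.78. A set of 3 choices of classes was added after seeing the data: without the Lpar3, the Saa3 or the CTFs-like cells. Without the Lpar3 cells the Tgfb1 ratio of the wild-type library turned from 0.78 to -0.23 (log2), within 2-fold in both. Small classes limit precision, as 20 to 43 cells stand behind 3 of the named classes.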
